A study of Mus musculus with 8 samples.

Results

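miR-451, miR-144 and miR-486 are the miRNAs best known from red blood cells, and their levels were measured here in mouse skeletal muscle. They were picked by the names mmu-miR-451, mmu-miR-144 and mmu-miR-486 and are 3 of the 567 mouse miRNAs on the array, each with 2 probes of 10 spots. Their signals came from 4 arrays labelled diabetic and 4 labelled control, each hybridised with 100 ng of Cy3-labelled total RNA. The design text describes obese diabetic C57BL/KsJ db/db mice, which lack a working leptin receptor, and normal C57BL/KsJ db+ mice. The strain entries of the samples carry these genotypes the other way round, so groups go by the titles, the descriptions and the group entries. The muscle sampled and the age of the mice are not given in the sources used here. No label ties an array to an animal, so p-values measure the spread between arrays, which may be technical.

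In red blood cell precursors the genes for miR-144 and miR-451 lie side by side and are read as 1 transcript that the erythroid factor GATA1 switches on. miR-451 is cut by Argonaute2 instead of Dicer and stays abundant in mature red cells, where it protects against oxidative stress. miR-486 comes from the ankyrin gene Ank1 and is made both in red cell precursors and in muscle fibres, where it favours growth signals. Blood left in a muscle sample therefore brings miR-451, miR-144 and some miR-486. In RNA from whole tissue, fewer cells of a type and less RNA per cell cannot be told apart.

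The mature strands of the clustered pair are shown because they are what the probes target, and the hairpins because their layout differs. They are RefSeq sequences of build GRCm38.p6, where miR-451 was taken as the entry now called miR-451a. That build is not the mm9 build named by the array design. The array's name miR-144 carries no arm, and the strand shown is the one now called miR-144-3p. miR-451 lies on the plus strand at chr11:78073186-78073207 and miR-144-3p on the plus strand at chr11:78073047-78073066. The seed, bases 2 to 8, stands in capitals.
miR-451: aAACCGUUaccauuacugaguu
miR-144: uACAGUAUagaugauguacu
The 2 seeds differ, and among 1679 mature mouse miRNAs in the table each was held by 1, the miRNA itself. miR-144-3p does begin with the same 7 bases as miR-101a, and whether the probes of one bind the other was not tested. In the hairpins, 99 bases apart, capitals mark the mature strand.
Mir451a hairpin: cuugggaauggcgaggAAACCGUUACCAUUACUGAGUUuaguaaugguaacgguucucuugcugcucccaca
Mir144 hairpin: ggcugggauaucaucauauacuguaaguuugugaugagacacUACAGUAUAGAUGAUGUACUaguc
ViennaRNA folding placed the end loop of Mir451a at positions 35 to 38, inside the mature strand at positions 17 to 38. In Mir144 the loop fell at positions 31 to 36 and the mature strand at positions 43 to 62, on 1 arm. miR-486 is named only.

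The arrays themselves differed in brightness and makeup. Each array was scaled by the 75th percentile of the 152 probes that every array detected, and this value ran from 219 to 479 on the diabetic arrays and from 308 to 618 on the control arrays, with 618 on control 2. Between 102 and 131 miRNAs were detected per diabetic array and between 112 and 147 per control array. Diabetic arrays filled slide row 2 and control arrays row 1, so row and group cannot be told apart. The tissue check held: 5 or 6 of 7 muscle miRNAs were detected on each array, while the neural miR-124 and miR-9 were detected on 0. All diabetic against control differences below are log2 differences of relative levels, tested with limma over the 126 miRNAs detected on at least 4 arrays, and 6 of these (4.76%) passed an adjusted p of 0.05, all of them higher on the diabetic arrays.

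miR-451 did not differ between the groups beyond the spread of the arrays, and its most visible feature was a single bright control array. Its mean probe signal was 312, 324, 613 and 312 on diabetic 1 to 4, against 262, 1454, 437 and 383 on control 1 to 4. Control 2 was the brightest, by 1.25 on the log2 scale over diabetic 3, which came next, while the other 6 lay between 262 and 437. After scaling, the relative log2 level was −0.20, −0.57, 0.57 and 0.51 on the diabetic arrays, against −0.23, 1.23, 0.38 and 0.23 on the control arrays. The groups overlapped, with control 2 at the top and diabetic 2 at the bottom of all 8. The mean was 0.08 ± 0.55 on the diabetic arrays and 0.40 ± 0.61 on the control arrays (SD, n = 4 each), and the log2 difference of −0.33 (SE 0.35, limma adjusted p = 0.699) had a 95% interval of −1.09 to 0.44, or 0.471-fold to 1.35-fold. Without control 2 the difference was −0.05 (limma adjusted p = 0.949), and without diabetic 2 it was −0.11.

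Both probes of miR-451 gave this pattern. Probe 1 read 220, 219, 412 and 198 on diabetic 1 to 4, against 190, 942, 291 and 232 on control 1 to 4. Probe 2 read 403, 429, 814 and 426 on the diabetic arrays, against 334, 1967, 582 and 535 on the control arrays. Probe 2 was 1.76 to 2.30 times as bright as probe 1 on every array, and the log2 differences were −0.30 for probe 1 and −0.34 for probe 2. The bright reading of control 2 was repeated at all spots used: the 8 of probe 1 lay between 911 and 995 and the 8 of probe 2 between 1886 and 2108. On that array 2 of 10 spots of each probe had been dropped as outliers, which can narrow these ranges. Over probes and arrays the spots used varied by 2.02% to 20.5% of their mean (CV). Control 2 had the highest miR-451 level under each of 12 settings of scaling, background, spots, probes and floor, by 0.49 to 1.25 on the log2 scale over the next array.

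**Figure D1:**
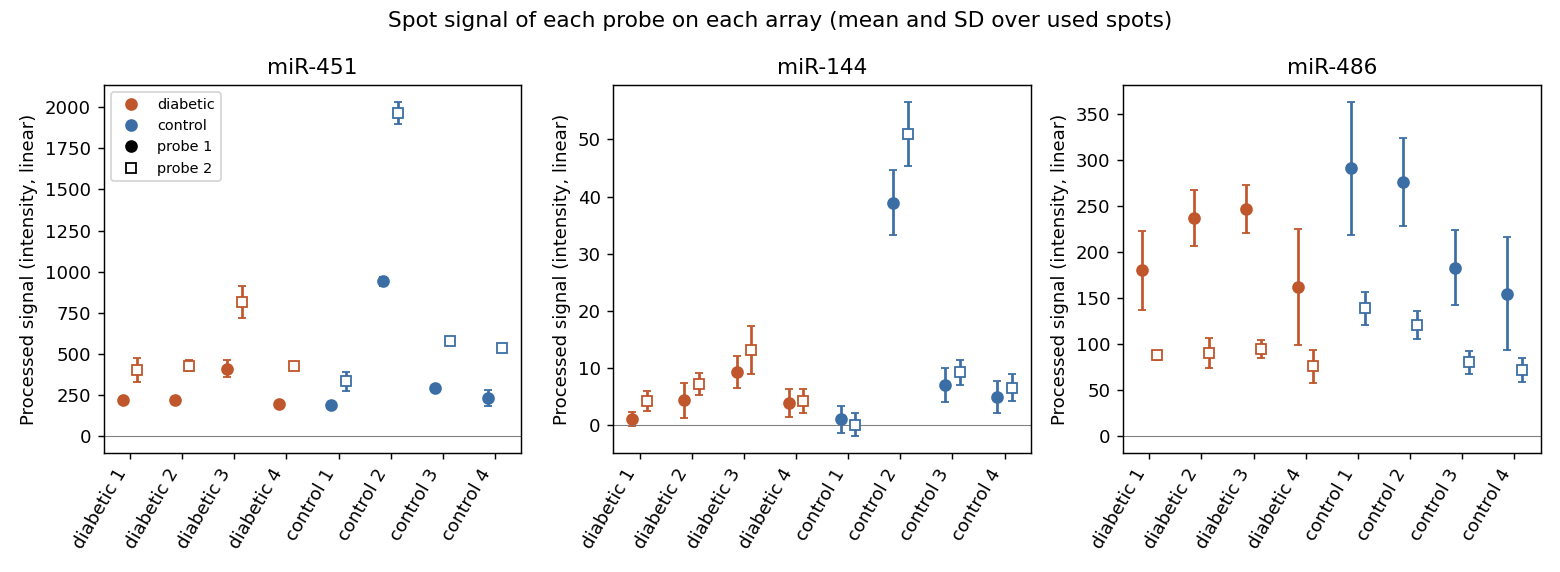
Processed signal (linear intensity) of the 2 probes of miR-451, miR-144 and miR-486 on each array, diabetic arrays in orange and control arrays in blue. Points are means and bars SDs over the spots used, before scaling; control 2 stands highest for miR-451 and miR-144 on both probes, but not for miR-486.

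miR-144, the neighbour of miR-451 in the genome, was near the detection limit on 7 arrays and clear on 1. Its mean probe signal was 2.67, 5.78, 11.2 and 4.03 on diabetic 1 to 4, against 0.548, 44.98, 8.12 and 5.74 on control 1 to 4. A probe counted as detected where at least 50% of its spots were well above background, and by this rule miR-144 was detected on 0 of 4 diabetic arrays and on 1 of 4 control arrays, control 2. There, 19 of 19 spots used were well above background. Elsewhere such spots were found only on diabetic 3, with 4 of 20, and the scanner software called the miRNA detected on these same 2 arrays. Both arrays were also the 2 brightest for miR-451, each within its own group.

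The weaker test of a spot, whether its signal was significantly positive, separated the arrays further. It was met by 8 of 17, 14 of 18, 20 of 20 and 15 of 20 spots on diabetic 1 to 4, against 1 of 19, 19 of 19, 18 of 18 and 15 of 19 spots on control 1 to 4. The smallest share was on control 1, which also had the lowest unscaled miR-451 signal, 262. After scaling, the lowest miR-451 level was on diabetic 2 instead, but the spot counts of miR-144 are not scaled. Signals that are not well above background set only an upper bound, so these values are not ranked. Against the higher of its own signal and the dimmest detected probe of each other array, the scaled miR-144 level of control 2 was at least 1.04-fold (diabetic 4) to at least 2.35-fold (diabetic 3) higher; this sets single arrays side by side, with no test.

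miR-144 fell short of the detection minimum and has no test of its own between the groups. The control mean lay under the bound of the diabetic arrays, so no fold is given. Among the 165 miRNAs detected on at least 1 array, miR-144 was included only through control 2, where it was high. Its log2 difference in that fit was −0.48 (SE 0.47, limma adjusted p = 0.647), with 3 of 8 values at the lowest level allowed. Because that entry itself favours a negative sign, the fit cannot decide on a difference, and the size is uncertain.

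miR-486, made in muscle as well as in red cells, was detected on all 8 arrays and did not follow miR-451 onto control 2. Its mean probe signal was 134, 164, 171 and 120 on diabetic 1 to 4, against 215, 199, 132 and 114 on control 1 to 4. The relative log2 level was −1.42, −1.55, −1.27 and −0.88 on the diabetic arrays, against −0.52, −1.64, −1.35 and −1.52 on the control arrays. Control 1 was the highest array and control 2 the lowest, with the diabetic arrays between them; with each of the 4 other scalings tried, none included, control 4 was the lowest instead. The means were −1.28 ± 0.29 on the diabetic arrays and −1.26 ± 0.51 on the control arrays (SD, n = 4 each). The log2 difference was −0.02 (SE 0.28, limma adjusted p = 0.958), with a 95% interval of −0.63 to 0.58, or 0.648-fold to 1.497-fold. With 4 arrays a group, a change of either sign within that range remained possible. The sign of the difference turned under other settings: it was 0.22 without control 1 and 0.30 with each array's percentile taken over all mouse probes.

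The 2 probes of miR-486 followed each other over the arrays but gave differences of opposite sign, 0.003 for probe 1 and −0.08 for probe 2. Probe 1 read 180, 237, 247 and 163 on diabetic 1 to 4, against 291, 277, 183 and 155 on control 1 to 4. Probe 2 read 88.3, 90.4, 95.4 and 76.3 on the diabetic arrays, against 139, 121, 80.7 and 72.3 on the control arrays. Both differences are small beside the spread between arrays. The spots used varied more for miR-486 than for miR-451, with a median CV of 17.7% for miR-486 and 8.10% for miR-451. Outlier spots had been dropped first, 3 of 160 for miR-486 and 19 of 160 for miR-451. Dropping them lowers a CV, so the 2 medians are not on equal terms.

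**Figure D2:**
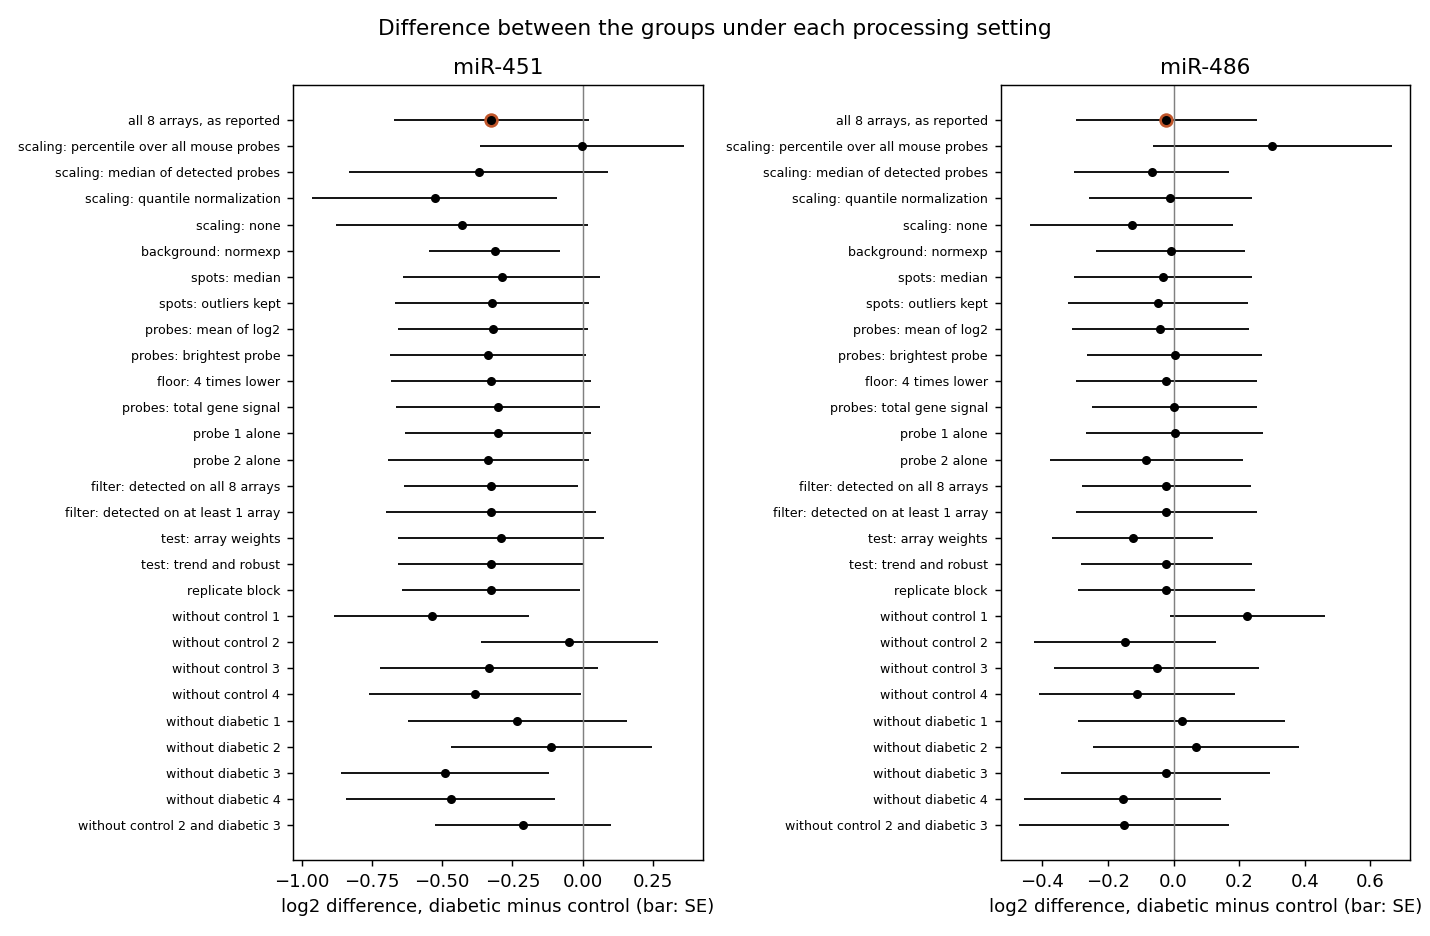
Log2 difference (x axis, diabetic minus control, bar SE) of miR-451 and miR-486 under each processing setting, with the reported value at the top in orange. miR-451 stays at or below 0, from −0.54 to −0.002, while miR-486 lies on both sides of 0.

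Whether the red cell miRNA and the one shared with muscle moved unequally was asked within each array, where the scaling cancels. The log2 level of miR-486 minus that of miR-451 was −1.21, −0.98, −1.84 and −1.39 on diabetic 1 to 4, against −0.28, −2.87, −1.73 and −1.76 on control 1 to 4. The control arrays held both the lowest and the highest value, and the diabetic arrays lay inside that range. The mean was −1.36 ± 0.36 on the diabetic arrays and −1.66 ± 1.06 on the control arrays (SD, n = 4 each), a difference of 0.30 (exact permutation p = 0.657, two-sided; 70 assignments allow none under 0.0286). It was −0.10 without control 2 and 0.76 without control 1. The value on a single array says how the 2 miRNAs shifted against each other between arrays, not which was more abundant.

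Over the 8 arrays no relation between the levels of miR-451 and miR-486 was found, though 8 arrays cannot exclude one (Pearson r = −0.22, exact permutation p = 0.588; Spearman rho = −0.07, exact permutation p = 0.882; n = 8). Without the 2 arrays farthest from the median of miR-451, control 2 and diabetic 2, r was −0.26, and with each group centred on its mean it was −0.24. This was 1 of 7 relations computed, with adjusted p-values of 0.771 and 0.935. miR-144, detected on 1 array, entered none. The sign of r also turned with the scaling, to 0.35 with none.

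In the same family, miR-451 had r = 0.53 with miR-223, a miRNA of neutrophils and monocytes (exact permutation p = 0.179, adjusted 0.417; rho = 0.19, exact permutation p = 0.665, adjusted 0.935; n = 8). Without control 2 and diabetic 2 it was −0.15, so the value rests on those arrays. With the muscle fibre miRNA miR-1 the r of miR-451 was −0.60 (exact permutation p = 0.120, adjusted 0.417; rho = −0.26, exact permutation p = 0.536, adjusted 0.935; n = 8), and it turned to 0.57 without the same arrays. With miR-16, abundant in red cells and many other cells, it was 0.26 (exact permutation p = 0.535, adjusted 0.771; rho = 0.05, exact permutation p = 0.935, adjusted 0.935; n = 8), and −0.82 without them. The relation of miR-486 with miR-133a, a miRNA of muscle fibres, had the smallest p of the 7 and did not pass (r = 0.69, exact permutation p = 0.0599, adjusted 0.417; rho = 0.62, exact permutation p = 0.115, adjusted 0.805; n = 8). It was 0.31 without control 1 and diabetic 4. miR-486 had r = 0.13 with miR-1 and 0.19 with miR-16 (exact permutation p = 0.771 and 0.661, both adjusted to 0.771; rho = 0.14 and −0.10, exact permutation p = 0.752 and 0.840, both adjusted to 0.935; n = 8). All levels on an array share its scaling, so none of these values is independent of it.

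**Figure D3:**
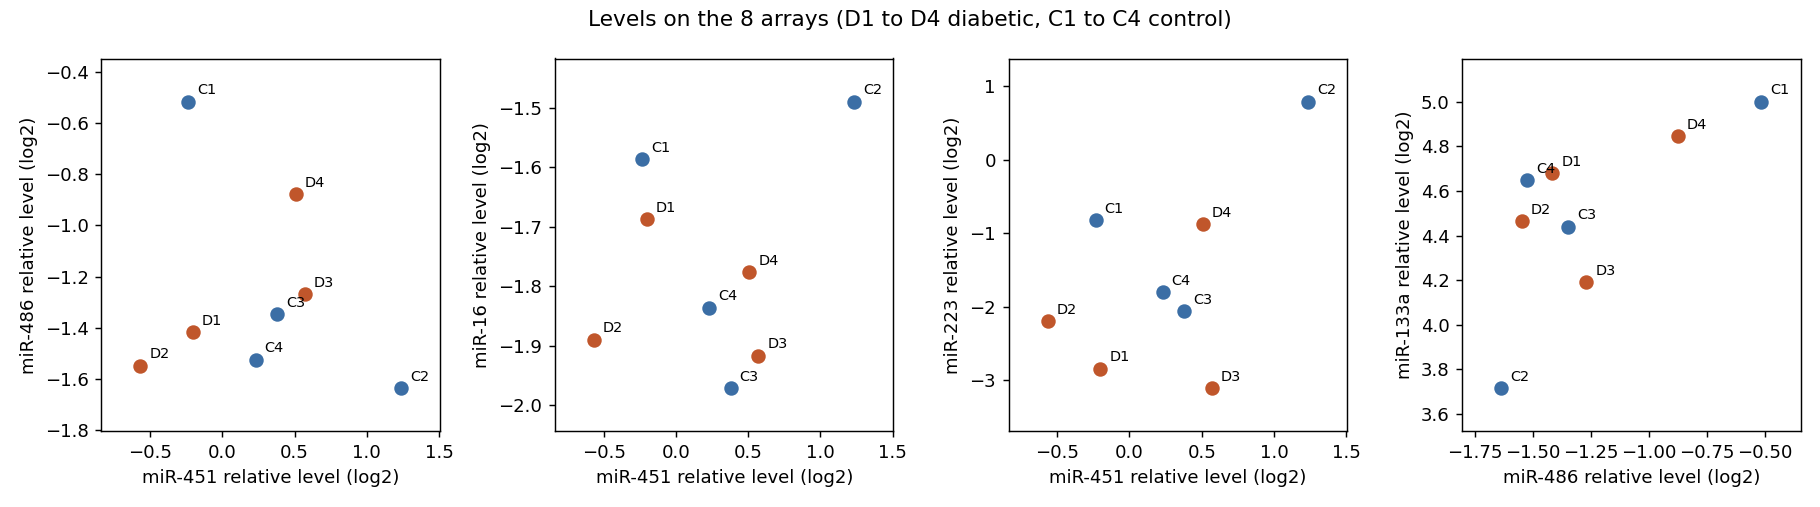
Relative log2 levels on the 8 arrays (D1 to D4 diabetic in orange, C1 to C4 control in blue) for 4 pairs of miRNAs. C2 lies at the far right for miR-451 (1.23) in the first 3 panels, and C1 at the far right for miR-486 (−0.52) in the last.

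Among all tested miRNAs, the 5 whose level over the 8 arrays was most like that of miR-451 were miR-140 (Pearson r = 0.70), miR-106b (0.67), miR-15a (0.63), miR-15b (0.59) and miR-140* (0.58). Without control 2 these were 0.50, 0.24, 0.34, 0.04 and 0.35, so the likeness of miR-15b came almost wholly from that array. For miR-486 they were miR-378, which lies in the gene of the mitochondrial coactivator PGC-1beta (r = 0.80), miR-494 of the imprinted Dlk1-Dio3 cluster (0.79), miR-1224 (0.74), miR-720, an entry now known as a tRNA fragment (0.73), and miR-212 (0.72, detected on 4 of 8 arrays). Without control 1, the highest array for miR-486, these were 0.81, 0.54, 0.63, 0.41 and 0.30, so the likeness of miR-720 and miR-212 rested largely on that array. These are the highest of 125 values for each miRNA over 8 arrays and are given as a description.

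The wider list of red cell miRNAs held no called difference between the groups either. Of its 13 miRNAs, all on the array, 11 were tested; miR-144 and miR-191 were not, and miR-191 was detected on 0 arrays. By limma 0 of the 11 passed in either direction, here and in 25 alternative settings. Over all, 6 of 126 (4.76%) passed here, and for 11 miRNAs a count of 0 is near that share. Of the 11, 1 had an unadjusted p under 0.05, against 21 of all 126. Log2 differences were positive for 3 and negative for 8, from −0.74 to 0.17, with a median of −0.10. Over all 126 tested miRNAs 58 were positive and 68 negative, with a median of −0.06. The smallest p belonged to miR-15b, at −0.74 (SE 0.32, limma adjusted p = 0.260), and the next to miR-185, at −0.24 (SE 0.21, limma adjusted p = 0.699). miR-16 lay at −0.10 (SE 0.20, limma adjusted p = 0.869).

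The list, which holds miR-451 itself, showed the same single array. Of its 11 tested miRNAs 7 were highest on control 2 (miR-451, miR-16, miR-15a, miR-15b, miR-25, miR-93 and miR-106b), against 15 of all 126 (11.9%), while 61 of the 126 were lowest there. miR-486, miR-185 and miR-210 were highest on control 1 and miR-92a on diabetic 4. Being highest on control 2 was not particular to the list: miR-20a, miR-19b, miR-140 and miR-140*, outside it, were highest there too. The excess of control 2 over the median of the 8 arrays was 0.93 for miR-451, 1.37 for miR-15b, 1.34 for miR-93 and 0.32 for miR-16. The count of 7 was chosen for description after the levels were seen, and it depended on the processing: it was 5 with the percentile over all mouse probes, 8 with quantile normalization and 3 with normexp, against 10, 19 and 5 of all 126 in the same settings. Without scaling, control 2 was highest for 10 of the 11 and for 52 of the 126.

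**Figure D4:**
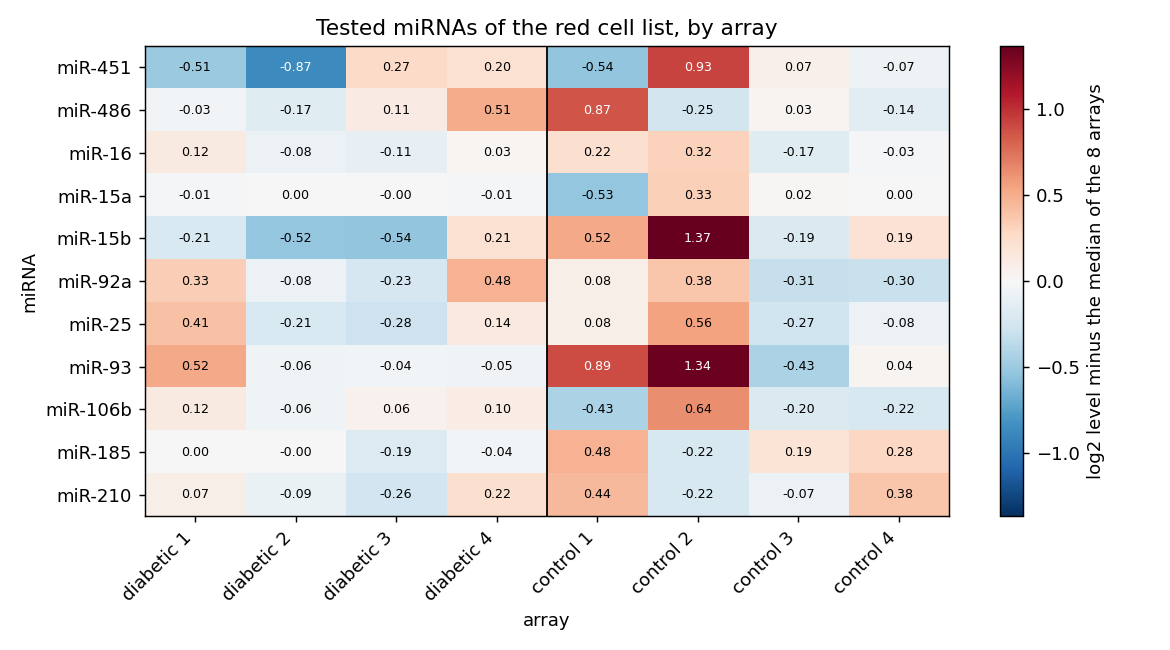
Log2 level of the 11 tested red cell list miRNAs on each array, minus the median of the 8 arrays (colour and number). Control 2 is red for 8 of them, among them miR-451 at 0.93, and blue for miR-486, miR-185 and miR-210.

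Some markers of other cells were also high on control 2, and others were not. The summed relative level of the 9 leukocyte list miRNAs, over those detected, was 0.189 to 0.604 on the diabetic arrays and 0.380 to 2.08 on the control arrays, with 2.08 on control 2, of which miR-223 alone made up 1.73; 4 of the 9 were detected on 0 arrays. miR-223 had a log2 level of −2.85, −2.20, −3.11 and −0.88 on diabetic 1 to 4, against −0.82, 0.79, −2.07 and −1.80 on control 1 to 4, so it too was highest on control 2. Of the other tested leukocyte miRNAs, miR-342-3p was highest on control 1, at −2.85 against −3.42 on control 2, and miR-155 was lowest of all arrays on control 2, at −5.71. miR-142-3p and miR-142-5p, made in all blood cell lineages and named after their values were seen, had relative levels of 0.187 and 0.0493 on control 2, and miR-142-5p was detected on that array alone. The summed level of the red cell list was 3.004 to 4.22 on the diabetic arrays and 3.56 to 5.78 on the control arrays, again highest on control 2. Of the 5.78 on control 2, miR-451 itself made up 2.35, so this sum is not separate from the miR-451 reading. The summed level of the 7 muscle miRNAs was 78.3 to 107 on the diabetic arrays and 53.0 to 104 on the control arrays, with the lowest value on control 2. The part of these cells in the levels of miR-451 and miR-144 was not tested.

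Between the groups, 0 of the 3 tested leukocyte miRNAs and 0 of the 6 tested muscle miRNAs passed by limma. Over all, 6 of 126 (4.76%) passed, so counts of 0 in lists this small are near that share. In each list 1 had an unadjusted p under 0.05, beside the 21 of 126 over all. The leukocyte median was −0.80, with miR-342-3p at −0.80 (SE 0.23, limma adjusted p = 0.0611) and miR-223 at −1.29 (SE 0.62, limma adjusted p = 0.344). At least 1 of the 3 passed in 8 of 25 alternatives. The muscle median was 0.04, with miR-206, a miRNA of slow and regenerating fibres, at −1.33 (SE 0.44, limma adjusted p = 0.132) and miR-1 at 0.34 (SE 0.22, limma adjusted p = 0.518). miR-206 passed in 3 of 25 alternatives. For miR-133a the difference was 0.09 (SE 0.28, limma adjusted p = 0.879). Groups did not overlap for miR-1 and miR-342-3p, as for 11 of all 126 (8.73%); for miR-451 and miR-486 they did. The endothelial miR-126-3p had a difference of −0.07 (limma adjusted p = 0.886) and the liver miRNA miR-122 one of 0.08 (limma adjusted p = 0.933).

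The arrays of a group differed in miR-451 more than in most miRNAs. Its SD was 0.55 over the diabetic arrays, the 11th largest of 126, and 0.61 over the control arrays, the 27th largest; the median SD was 0.23 on the diabetic and 0.43 on the control arrays. For miR-486 the SDs of 0.29 and 0.51 ranked 44th and 43rd.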

How the data were processed

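Each file is 1 Agilent array read by Feature Extraction 10.5, per the file headers. The deposited processed intensities are spot signals after background subtraction and spatial detrending, and no scaling between arrays is recorded in the headers. The deposited files also hold raw median intensities, total intensities per miRNA and other values, flags of 0 or 1 for outliers, saturation and detection, per the file headers. No spot of the 3 miRNAs was saturated (0).

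Outlier spots were dropped and the rest averaged per probe. Probes were divided by the array's 75th percentile of the 152 probes that every array detected and averaged per miRNA. Levels were raised to a floor of 0.0162 (−5.95 in log2) and set on the log2 scale. limma 3.58.1 in R 4.3.3 (lmFit, eBayes, group alone) was run on the 126 miRNAs, with Benjamini-Hochberg adjustment, and was tested on simulated data. Intervals are 95%. Single values were tested by exact permutation, two-sided. Hairpins were folded with ViennaRNA 2.7.2; figures use matplotlib 3.10.9. The number of arrays limits the precision.

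The text names the 3 miRNAs, the 2 with the smallest p of each list, the partners of 8 fixed pairs and the 5 most like each tested one. Members and lists were chosen with earlier results of these data known. A normexp alternative on the mean signal was planned and not run, since a mean signal was not found in the files; normexp on the median signal, single probes, leaving out 2 arrays, and the likeness without control 1 were chosen after seeing the data. Replicate numbers were not taken as pairs.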

Additional observations from a re-analysis of the deposited data

Results flagged for a closer look

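Within groups of 4 arrays, 46 sets of levels were examined for an array far from the others, and 3 stood out, where chance flags about 1 in 20; miR-451, miR-144 and miR-486 were not among them. miR-1224, one of those most like miR-486, was at 0.69 on control 1, above the other control arrays. miR-140*, one of those most like miR-451, was at −3.25 on diabetic 4, above the other diabetic arrays. miR-206 of the muscle list was at −1.75 on diabetic 4, below the other diabetic arrays.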

How the results depend on the processing

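No setting made miR-451 or miR-486 pass: over 27 alternatives each, limma adjusted p-values were 0.486 to 0.998 for miR-451 and 0.663 to 0.998 for miR-486. The log2 difference of miR-451 was negative in all 27, from −0.54 to −0.002. With single arrays left out it was −0.54 to −0.05 for miR-451 and −0.16 to 0.22 for miR-486. miR-486 was also positive when all mouse probes set the percentile (0.30), the brightest probe (0.0029), probe 1 alone (0.0029) and the total intensity per miRNA (0.0022). The difference of miR-486 minus miR-451 was −0.10 to 0.76 with single arrays left out. The correlation of miR-451 with miR-486 was −0.50 to 0.086 with single arrays left out, and turned positive when all mouse probes set the percentile (0.19), with the median of detected probes (0.13), no scaling (0.35) and without control 2 and diabetic 3 (0.13). miR-144 was detected on 2 arrays, not 1, if any spot sufficed and by the software's flag. Signal over background limits miR-144: 95% of negative control spots lay under 7.37 to 9.44, depending on the array, a level that its mean signal passed on diabetic 3 and control 2 and not on the other 6. This sets a mean over spots against single spots and is a coarse mark. On control 3 the mean was 8.12 against a level of 8.40, yet 18 of 18 spots were significantly positive.

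The number of miRNAs higher on the diabetic arrays, 6, was 2 to 7 with single arrays left out, 2 without control 2 and diabetic 3, 2 with detection on 1 array as the minimum and 0 without scaling. The number lower, 0, was 0 to 3 with single arrays left out, 3 with normexp and the replicate block, 2 with the median of detected probes, the brightest probe and detection on all 8 arrays, and 1 with array weights, the total intensity and a percentile of all mouse probes. That percentile moved the list medians to 0.23 (red cell), 0.36 (muscle) and −0.48 (leukocyte). With single arrays left out these were −0.18 to −0.05 (red cell), −0.15 to 0.24 (muscle) and −0.92 to −0.65 (leukocyte); the leukocyte median was −0.51 with quantile normalization, −0.20 with normexp and −0.41 without control 2 and diabetic 3. The percentile over all mouse probes is a single factor per array, so it shifted levels above the floor together and not the lists alone. Causes of the other changes were not tested. Normexp on the mean signal was not run, and normexp here is on the median signal.

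The deviations of same-numbered diabetic and control arrays had r = −0.29 to 0.51, and those of differently numbered ones r = −0.55 to 0.32. Of the 8 arrays, 4 were most like their own number, with 4 numbers to choose from. These values do not settle whether the numbers pair arrays. The labels do not say that they do, so the numbers were not taken as pairs. With the replicate block the log2 differences were −0.33 for miR-451 and −0.02 for miR-486, and 7 miRNAs were higher and 3 lower.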

Other observations

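The scanner software marked more spots of miR-451 as outliers than of the other 2 miRNAs: 19 of 160 for miR-451, 10 of 160 for miR-144 and 3 of 160 for miR-486. With outlier spots kept, the log2 difference of miR-451 was −0.32, against −0.33 without them, and that of miR-486 was −0.05, against −0.02.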
